A study of Homo sapiens with 6 samples.

Results

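The genes described here encode the subunits of the nuclear RNA polymerases I, II and III, together with POLRMT, the polymerase of mitochondria. They were chosen by symbol, as every gene of the table whose name starts with POLR1, POLR2 or POLR3, plus POLRMT and the older names TWISTNB, ZNRD1 and CD3EAP, which are Pol I subunits. The table of 23710 genes held 35 of them, of which 34 passed the filter on low counts. POLR2J2, the other one, had 6 reads in the DMSO libraries and 8 in the mebendazole libraries and was not tested. The family was selected with earlier results of this same contrast known, so its calls are a description of these libraries and support nothing further. By complex, 6 genes belong to Pol I alone, 2 to Pol I and III, 5 to all 3 enzymes, 7 to Pol II alone, 4 to Pol II as copies or an associated protein, 10 to Pol III alone, and 1 to mitochondria.

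RNA was sequenced from THP-1, an established human monocytic leukaemia cell line. Cells had been given 10 uM mebendazole, a benzimidazole drug against worms that binds tubulin, for 6 h. Control cells had been given DMSO, the solvent of the drug. Each group had 3 libraries, numbered 1 to 3, and the study describes them as 3 pairs. Libraries with the same number did not deviate together (correlations of 0.00, 0.06 and 0.02). Whether a pair came from a culture of its own is not in the labels, so the p-values cover only how far these samples spread, which could be technical.

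RNA polymerase I makes the long precursor of the ribosomal RNAs, Pol II makes messenger RNAs, and Pol III makes transfer RNAs, 5S ribosomal RNA and other short RNAs. The 3 enzymes share a common build: a pair of large subunits forms the active site, a small set of subunits is common to all of them, others are common to Pol I and III, and the remainder are specific to each enzyme. Output of Pol I and Pol III is known to follow cell growth, in part through the transcription factor MYC, which binds the E-box CACGTG.

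Promoter sequence was at hand for 25 of the 35 genes, from RefSeq (GRCh38.p14, 250 bases before and 50 after the start site). The E-box, whose letters read alike on both strands, stood in 4 of these 25 promoters (16%), against 7.26% of all 35116 promoters of that length. It stood in 1 of 5 Pol I promoters and 3 of 7 Pol III promoters, and in none of the 4 promoters of subunits specific to Pol II. All 4 matches are shown, and they fall at genes with both large and small changes. CD3EAP fell 2.94-fold, whereas POLR3E, POLR3A and POLR3C had log2 fold changes of -0.29, -0.20 and -0.11. Capitals mark the E-box in each 30-base window, which lies at chr19:45406620-45406649 (plus strand) for CD3EAP, chr10:78029533-78029562 (minus) for POLR3A, chr1:145823992-145824021 (plus) for POLR3C and chr16:22297396-22297425 (plus) for POLR3E.
CD3EAP: cccctttggatcCACGTGgtctgcaacctg
POLR3A: agaggaagcggaCACGTGggacactctacg
POLR3C: gcccgcgtcggtCACGTGagttggccaggc
POLR3E: cccgctccccccCACGTGtccgccggagtt
The motif begins 12 bases before the start site in CD3EAP, 35 in POLR3A, 196 in POLR3C and 1 in POLR3E. POLR1A and POLR1B, which fell more than 2-fold, held no E-box in this window. Whether MYC had a part in any of these changes was not tested.

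The GC box, GGGCGG or its reverse complement CCGCCC, stood in 17 of the 25 promoters (68%), against 45.0% of all promoters. The median GC content was 61.3% against 58.7%. GC boxes were in 1 of 5 Pol I, 5 of 7 Pol III and 3 of 4 Pol II promoters. Capitals mark the GC box in 3 windows, shown for 2 genes that fell and 1 that rose: POLR1B at chr2:112541846-112541875, POLR3B at chr12:106357716-106357745 and POLR2B at chr4:56978829-56978858, all on the plus strand.
POLR1B: ctccatccgggaCCGCCCgactcctctccc
POLR3B: cgggcagggagcGGGCGGaacctttctacc
POLR2B: tggcgtccctgtGGGCGGcctttggtgtga
The motif begins 178, 20 and 55 bases before the start site in these genes. POLR2B held another GC box, not shown, that begins 34 bases after the start site. Of the other motifs searched on both strands, the ETS site CCGGAAGT was in 5 promoters (20%, against 4.14% of all), the NRF1 core GCATGCGC in 3 (12%, against 3.05%), CCAAT in 6 (24%, against 34.6%) and TATAAA in 1 (4%, against 11.5%). The searched motifs YY1 (AAGATGGC) and CRE (TGACGTCA) were in 1 promoter each. The promoter of POLR1A held none of the 8 motifs. These are matches of letters only.

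The libraries held 13420558 to 15727667 reads. Spearman's rho across genes was 0.997 or more for 2 libraries of 1 group and 0.886 to 0.889 for libraries of different groups. Libraries of 1 group differed by more than sampling noise, so none was merged with another, which does not show that they came from separate cultures. Summed levels of 8 monocytic marker genes were 1605 to 1669 CPM with DMSO and 1277 to 1314 CPM with mebendazole. Of the 8, 7 fell, by 1.33-fold (CSF1R) to 46.9-fold (MNDA), and SPI1 rose 1.98-fold. The summed T cell, B cell, epithelial, stromal and erythroid markers stayed at or below 2.07 CPM in every library. CPM, reads divided by the size of the library, are scaled between libraries with TMM factors (1.08 to 1.10 with DMSO, 0.913 to 0.928 with mebendazole). Without those factors the median gene shifted by a log2 value of about -0.24, from -0.03 to -0.27, so changes smaller than this hold only relative to the scaling. DMSO replicate 1 stood apart in 2 RNAs made by Pol III, RMRP (105 reads, against 1 to 5 in each other library) and RPPH1 (126, against 1 to 5). Without the pair it belongs to, 21 polymerase genes fell and 5 rose, with 5 lower of Pol I, 7 lower of Pol III and 2 higher of Pol II, and genes that then lose their call are named where they occur.

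Genes of all the polymerases together took 0.189 to 0.192% of the reads with DMSO and 0.141 to 0.143% with mebendazole. Of the 34 genes tested, 23 fell, 5 rose and 6 did not pass the test (edgeR, Benjamini-Hochberg adjusted p under 0.05). Among all 13591 genes tested, 82.3% were called, 41.7% lower and 40.6% higher. At 2-fold or more, 6 of the 34 fell and 0 rose, against 14.8% and 15.5% of all genes. The median log2 fold change of the family was -0.31, against -0.03 over all genes. The groups did not overlap in 26 of the 34, against 82.4% of all genes. The share of genes called or with groups apart is thus close to that of the table as a whole, and the description below turns on direction and size by enzyme.

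**Figure D1:**
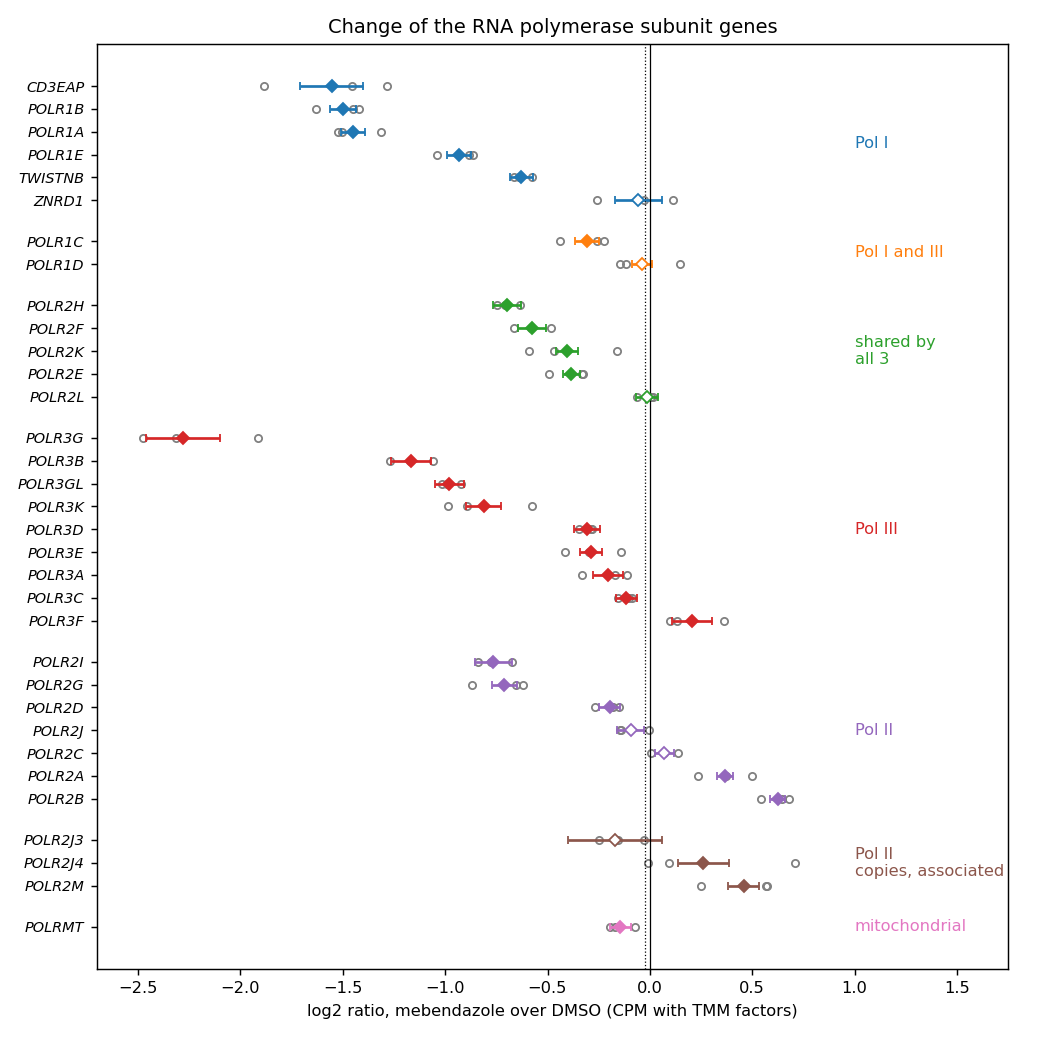
Log2 ratio of mebendazole over DMSO for the tested genes reported individually, grouped by polymerase. Grey circles are the 3 pairs, diamonds the fitted log2 fold change with its SE as bars (filled where adjusted p was under 0.05), and the dotted line is the median of all genes at -0.03; Pol I genes other than ZNRD1 lie to the left, and POLR2A and POLR2B to the right.

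The subunits of Pol I fell most as a class: 5 of the 6 fell, 3 of them more than 2-fold, and the median log2 fold change was -1.19. Their summed level was 257 ± 1.36 CPM with DMSO and 122 ± 1.498 CPM with mebendazole (SD, n = 3), which is 47.7% of the control level, or 40.3% without TMM factors. POLR1A, the largest subunit, which forms the active site with POLR1B, had 69.6, 69.8 and 68.1 CPM with DMSO and 24.2, 24.5 and 27.3 CPM with mebendazole. The groups were far apart, and the log2 fold change of POLR1A was -1.45 (SE 0.06, adjusted p = 5.5e-33, edgeR). POLR1B, the second largest subunit, had 63.2, 60.5 and 58.8 CPM with DMSO and 23.5, 19.5 and 21.5 CPM with mebendazole. Its change was of much the same size (-1.5, SE 0.06), so that the ratio of POLR1A to POLR1B reads was 1.14 with DMSO and 1.19 with mebendazole, with overlapping groups.

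CD3EAP and POLR1E encode the PAF49 and PAF53 proteins, a pair that binds the Pol I core. CD3EAP had 7.95, 8.47 and 7.99 CPM with DMSO and 2.83, 2.22 and 3.23 CPM with mebendazole, all lower, with the largest fall of the class (-1.55, SE 0.15, adjusted p = 2.6e-14, edgeR). It rests on 382 reads with DMSO and 110 with mebendazole, and its exons overlap those of ERCC1 and PPP1R13L on the other strand, whose reads this library type cannot tell apart. POLR1E, with no such overlap, went from 55.2 ± 2.40 to 28.9 ± 0.798 CPM (-0.93, SE 0.06). TWISTNB, the stalk subunit that contacts the initiation factor RRN3, went from 54.5 ± 1.40 to 35.3 ± 2.08 CPM (-0.63, SE 0.06).

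ZNRD1, the small subunit that helps the enzyme cleave RNA and terminate, was the exception. It had 9.27, 9.08 and 8.58 CPM with DMSO and 7.72, 8.90 and 9.29 CPM with mebendazole. The groups overlapped and the log2 fold change of ZNRD1 was -0.06 (SE 0.11, adjusted p = 0.64, edgeR). With library totals it was called lower (-0.30, adjusted p = 0.013). The exons of ZNRD1 overlap those of ZNRD1ASP on the opposite strand.

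**Figure D2:**
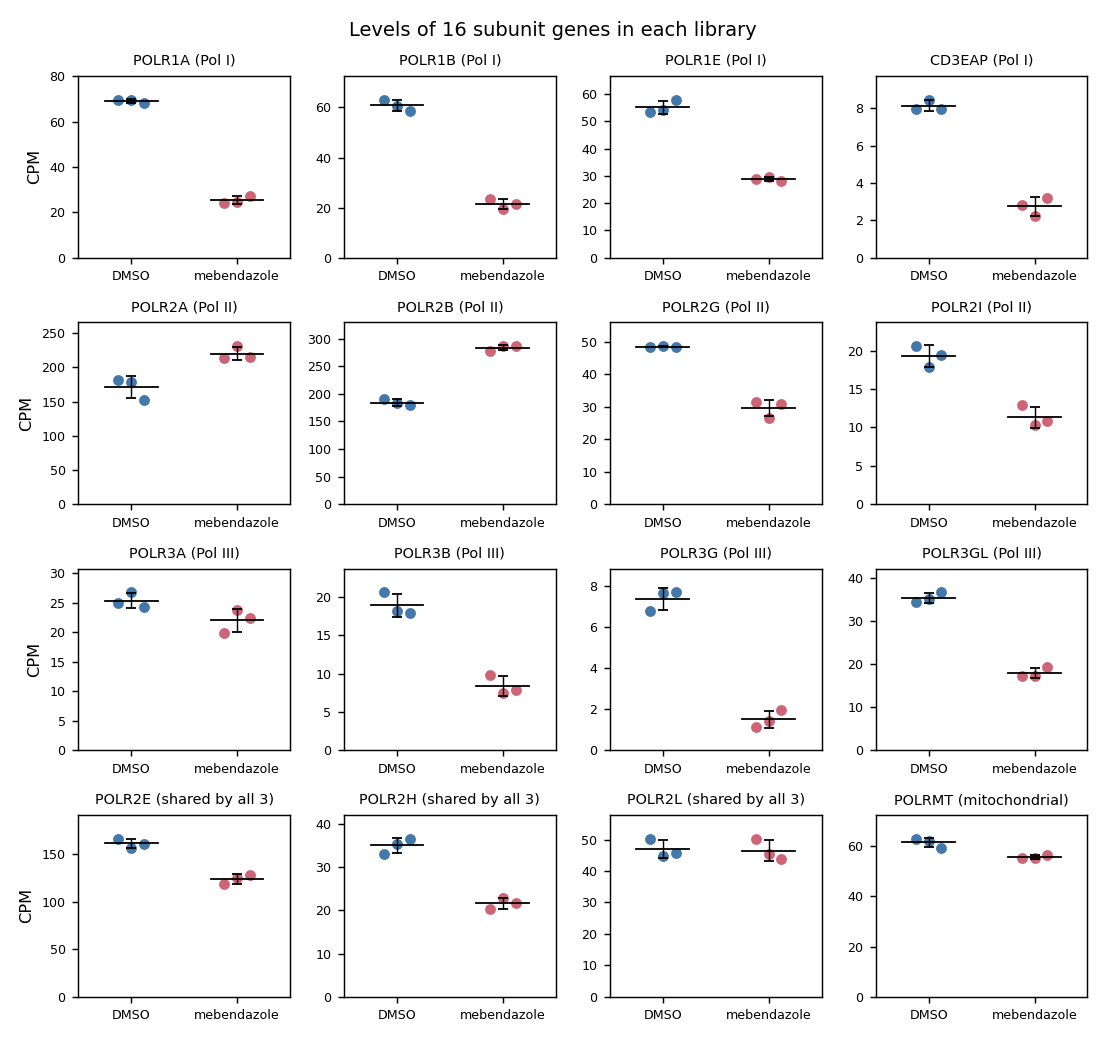
CPM of 16 subunit genes in each library, with DMSO in blue and mebendazole in red, on linear axes that start at 0. Points are libraries, long lines the means and bars the SD of 3; POLR1A lies at 68.1 to 69.8 CPM with DMSO and 24.2 to 27.3 CPM with mebendazole, whereas POLR2L overlaps between groups.

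Pol III subunits fell in 9 of 10 genes, with 1 higher and a median log2 fold change of -0.56. Their summed level was 346 ± 5.58 CPM with DMSO and 241 ± 3.22 CPM with mebendazole, 69.5% of the control level. The falls were uneven, from -2.28 to -0.11. POLR3A, the largest subunit, had 24.98, 26.8 and 24.3 CPM with DMSO and 19.8, 23.8 and 22.4 CPM with mebendazole. The groups were adjacent but did not overlap, and the log2 fold change of POLR3A was -0.20 (SE 0.07, adjusted p = 0.0084, edgeR). This call was lost with DESeq2 (adjusted p = 0.18) and without pair 1 (0.12).

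POLR3B, the partner of POLR3A in the active site, fell much more. It had 20.6, 18.2 and 17.9 CPM with DMSO and 9.85, 7.52 and 7.87 CPM with mebendazole (log2 fold change -1.17, SE 0.10, adjusted p = 1.3e-17, edgeR). The ratio of POLR3A to POLR3B reads was 1.21, 1.47 and 1.36 in the DMSO libraries and 2.01, 3.16 and 2.85 in the mebendazole libraries. In every pair the ratio was higher with mebendazole. For Pol II, the ratio of POLR2A to POLR2B reads shifted too, from 0.926 ± 0.0652 with DMSO to 0.774 ± 0.0287 with mebendazole. Its groups did not overlap either.

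POLR3G and POLR3GL encode alternative forms of the RPC7 subunit, of which POLR3G is known as the form of stem and dividing cells and POLR3GL as the common one. POLR3G had 6.77, 7.66 and 7.70 CPM with DMSO and 1.13, 1.46 and 1.97 CPM with mebendazole. This was the largest fall of the family, 4.86-fold (-2.28, SE 0.18, adjusted p = 2.9e-18, edgeR), on 347 and 60 reads. POLR3GL had 34.5, 35.2 and 36.8 CPM with DMSO and 17.3, 17.3 and 19.4 CPM with mebendazole (-0.98, SE 0.07). Both forms fell, and the ratio of POLR3G to POLR3GL reads was 0.196, 0.218 and 0.209 with DMSO and 0.0656, 0.0841 and 0.102 with mebendazole, so the groups did not overlap.

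Other subunits of Pol III fell to different degrees. POLR3K, which like ZNRD1 takes part in RNA cleavage, went from 23.3 ± 0.250 to 13.2 ± 2.20 CPM (-0.81, SE 0.08). POLR3D and POLR3E, a pair with roles in initiation and termination, had log2 fold changes of -0.31 (SE 0.06) and -0.29 (SE 0.05). POLR3C, of the trimer that opens the promoter together with POLR3F and RPC7, was called lower at -0.11 (adjusted p = 0.033), but not with DESeq2 (0.30), with its size factors in edgeR (0.082) or without any 1 of the 3 pairs (0.06 to 0.24).

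POLR3F was the only Pol III gene called higher. It had 11.8, 11.1 and 11.99 CPM with DMSO and 12.97, 11.9 and 15.4 CPM with mebendazole, and the groups overlapped. The log2 fold change of POLR3F was 0.20 (SE 0.10, adjusted p = 0.047, edgeR), and it was -0.04 with library totals, where it was not called. It was also not called with DESeq2 (0.23), under other filters on low counts (0.07 and 0.092) or without pair 3 (0.40). Its exons overlap those of DZANK1.

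**Figure D3:**
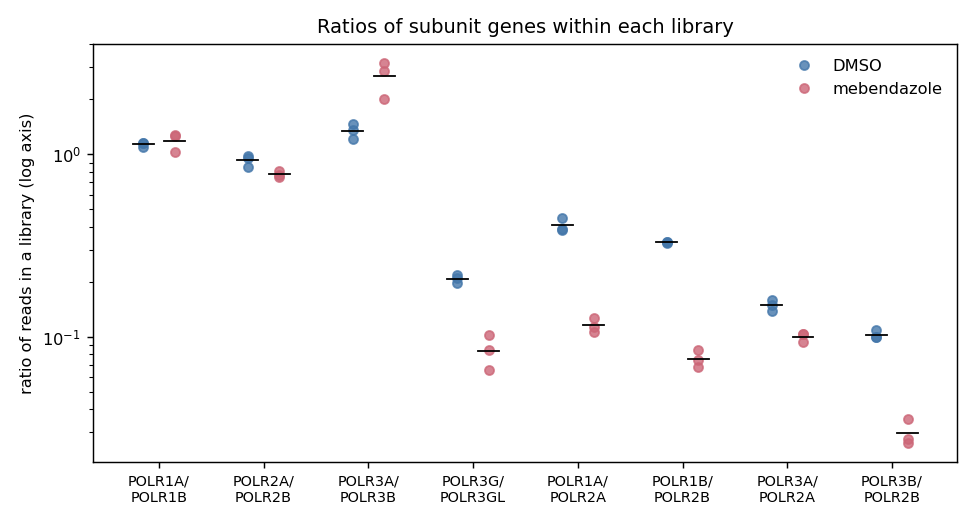
Ratios of the reads of 2 subunit genes within each library, on a log axis; points are libraries and lines the means of 3. The ratio of POLR3A to POLR3B rises from a mean of 1.35 to 2.68, that of POLR3G to POLR3GL falls from 0.208 to 0.0838, and that of POLR1A to POLR1B overlaps between groups.

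Both genes shared by Pol I and III encode the heterodimer on which the enzymes are assembled. POLR1C had 46.5, 49.6 and 52.7 CPM with DMSO and 39.8, 41.5 and 38.9 CPM with mebendazole, and fell (-0.31, SE 0.06, adjusted p = 2e-06, edgeR). POLR1D had 72.0, 74.7 and 81.5 CPM with DMSO and 79.8, 68.8 and 73.7 CPM with mebendazole. The groups overlapped for POLR1D, which was not called (-0.04, SE 0.05, adjusted p = 0.48). POLR1D was called lower when pair 1 was left out (-0.13) and when libraries were scaled by their totals (-0.28).

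Of the 5 subunits common to Pol I, II and III, 4 fell and 1 was not called, with a median log2 fold change of -0.40. Their summed level was 77.1% of the control level. POLR2H (RPB8) had 33.1, 35.4 and 36.6 CPM with DMSO and 20.3, 22.8 and 21.8 CPM with mebendazole (-0.70, SE 0.07, adjusted p = 9.9e-15, edgeR). POLR2F (RPB6) had 31.8, 31.9 and 30.9 CPM with DMSO and 21.3, 20.1 and 22.1 CPM with mebendazole (-0.58, SE 0.07). In both genes every mebendazole library lay below every DMSO library.

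POLR2E (RPB5), which grips the incoming DNA, had 166, 157 and 161 CPM with DMSO and 118, 125 and 129 CPM with mebendazole (-0.38, SE 0.04). POLR2K (RPB12) had 67.0, 71.1 and 76.8 CPM with DMSO and 59.9, 51.3 and 51.0 CPM with mebendazole (-0.40, SE 0.05). Neither gene's groups overlapped. POLR2L (RPB10) had 50.1, 44.8 and 45.9 CPM with DMSO and 50.3, 45.3 and 43.8 CPM with mebendazole, with overlapping groups (-0.01, SE 0.06, adjusted p = 0.82). With library totals POLR2L was called lower (-0.26).

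Subunits specific to Pol II went both ways, with 2 of 7 higher, 3 lower and 2 not called, and a median log2 fold change of -0.09. POLR2A, the largest subunit, whose tail is phosphorylated through the transcription cycle, had 181, 179 and 153 CPM with DMSO and 213, 231 and 216 CPM with mebendazole. Every mebendazole library was above every DMSO library, and POLR2A rose (0.37, SE 0.04, adjusted p = 2.2e-13, edgeR). POLR2B, its partner in the active site, had 191, 183 and 179 CPM with DMSO and 278, 287 and 287 CPM with mebendazole, a rise of 1.54-fold (0.62, SE 0.04, adjusted p = 3.5e-25). Both kept their calls with library totals, at 0.12 for POLR2A and 0.38 for POLR2B. The exons of POLR2B overlap those of NOA1 and IGFBP7 on the opposite strand.

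The peripheral subunits of Pol II fell. POLR2I (RPB9) had 20.6, 17.8 and 19.4 CPM with DMSO and 12.9, 10.4 and 10.8 CPM with mebendazole, and was the lowest of the class (-0.77, SE 0.09, adjusted p = 8.4e-12, edgeR), with exons that overlap TBCB and OVOL3. POLR2G (RPB7) went from 48.6 ± 0.202 to 29.6 ± 2.58 CPM (-0.71, SE 0.06). POLR2D (RPB4), with which RPB7 forms the stalk, went from 61.0 ± 1.18 to 53.2 ± 2.91 CPM (-0.20, SE 0.05). POLR2C and POLR2J (RPB3 and RPB11), the assembly heterodimer of Pol II, were not called, at 0.07 and -0.09. With library totals both were called lower (-0.17 and -0.34).

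The summed level of the 7 Pol II genes was 591 ± 17.0 CPM with DMSO and 706 ± 4.49 CPM with mebendazole, or 120% of the control level. This rise rested on POLR2A and POLR2B and on the scaling, since without TMM factors the mebendazole sum was 101% of the control sum. Ratios within a library do not depend on the scaling. The ratio of POLR1A to POLR2A reads went from 0.407 ± 0.0341 to 0.115 ± 0.0104, and that of POLR1B to POLR2B from 0.330 ± 0.0016 to 0.0757 ± 0.0084. For Pol III the ratio of POLR3A to POLR2A went from 0.149 ± 0.0106 to 0.0999 ± 0.0059 and that of POLR3B to POLR2B from 0.102 ± 0.0050 to 0.0297 ± 0.0050. In each of these ratios the groups did not overlap.

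**Figure D4:**
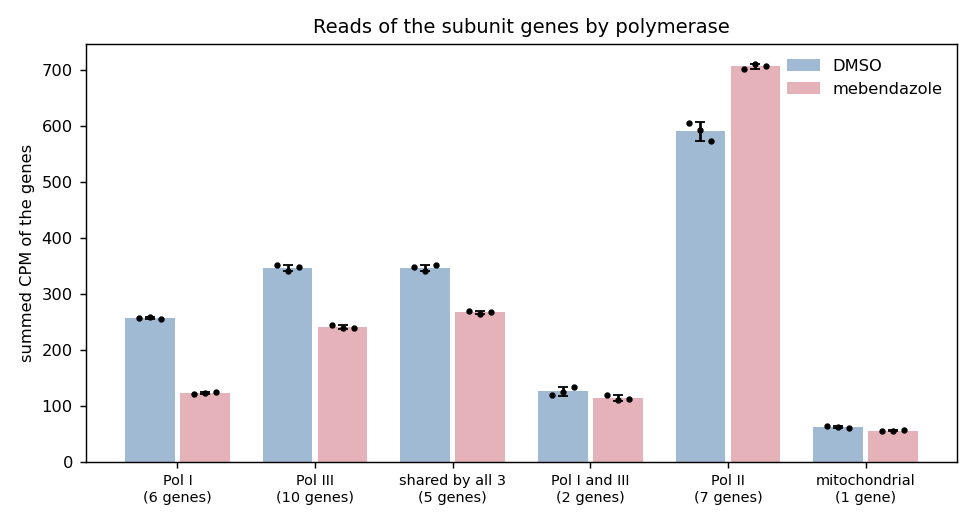
Summed CPM of the genes of each class, as means of 3 libraries with the SD as bars and libraries as points, with DMSO in blue and mebendazole in red. The Pol I sum falls from 257 to 122 CPM, the Pol III sum from 346 to 241 CPM and the shared sum from 347 to 267 CPM, while the Pol II sum is 591 and 706 CPM.

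Copies of POLR2J share sequence with it, so reads may be split between POLR2J and its copies, and the values of all of them are uncertain. POLR2J3 had 1.45, 2.85 and 2.29 CPM with DMSO and 1.42, 2.38 and 2.05 CPM with mebendazole, overlapped and was not called (-0.17, SE 0.23, adjusted p = 0.50, edgeR). POLR2J4, a pseudogene, was called at 0.26 (adjusted p = 0.048) with overlapping groups, but lost its call with DESeq2, with library totals and when pair 2 was left out. POLR2M, known as Gdown1, binds Pol II and keeps it from initiating. It had 17.0, 16.5 and 20.8 CPM with DMSO and 25.4, 24.5 and 24.7 CPM with mebendazole, and rose (0.46, SE 0.08, adjusted p = 2.6e-07). Its exons overlap those of GCOM1 on the same strand.

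POLRMT, the single-subunit polymerase of mitochondria, had 63.0, 62.2 and 59.4 CPM with DMSO and 55.1, 55.3 and 56.5 CPM with mebendazole. The groups did not overlap, and POLRMT was called lower (-0.15, SE 0.05, adjusted p = 0.0078, edgeR). The call was lost with DESeq2 (0.17) and without pair 1 (0.06) or pair 2 (0.079). Of the genes in the mitochondrial list, 7 of 8 fell and none rose, with a median log2 fold change of -0.53. Over all genes tested, 41.7% fell and 40.6% rose. With library totals 8 of the 8 fell, against 7319 of all 13591 genes. MTERFD3, of the mitochondrial termination factor family, fell most (-1.61, SE 0.13), followed by TFB1M (-1.15), a methyltransferase of mitochondrial ribosomal RNA, TFB2M (-0.68), which opens the promoter, and TFAM (-0.68), which packages the genome and bends promoter DNA.

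To set levels of different genes beside each other, CPM were divided by transcript length (GENCODE v29, GRCh38, by symbol). With DMSO the highest per kilobase were POLR2E (97.3 CPM per kilobase), POLR2K (71.8), POLR2G (58.7), POLR2F (54.2) and POLR2L (52.6). This order depends on the transcript length taken: by the longest annotated transcript POLR2K was highest (70.2), followed by POLR2E (57.0), POLR2L (52.6) and POLR2B (44.9), while POLR2G was at 31.2 and POLR2F at 14.98. The large subunits of Pol II stood above those of the other enzymes. POLR2B was at 49.2 and POLR2A at 25.3 CPM per kilobase, POLR1B at 13.3 and POLR1A at 5.43, and POLR3B at 4.51 and POLR3A at 3.82. The lowest tested genes outside the copies of POLR2J were POLR3G (2.25) and CD3EAP (3.18). By the longest transcript ZNRD1 (12.1 by the first measure) was also this low, at 2.445 against 2.477 for CD3EAP. The exons of 19 of the 35 genes overlap another gene in that annotation, and the kit does not mark strand. Besides the genes with an overlap named above, they include POLR2E, POLR2F, POLR1C, POLR2C, POLR2D, POLR2J and its copies, POLR3B, POLR3D and POLR3GL.

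Genes that load, assemble or regulate the polymerases were described from lists written by role, with earlier results of these data known. Exon overlaps and reads shared with copies were not examined for the genes of the lists. Loading and other factors of Pol I were mixed with TMM factors: 3 of 7 rose, 2 fell and 2 were not called. Their median log2 fold change was 0.10, and of all genes tested 40.6% rose and 41.7% fell. UBTF, which binds the ribosomal DNA, went from 214 ± 7.60 to 143 ± 0.900 CPM (-0.58, SE 0.04, adjusted p = 1.8e-22, edgeR). RRN3, which joins the enzyme to the promoter, went the other way, from 90.9 ± 1.01 to 137 ± 3.47 CPM (0.60, SE 0.04, adjusted p = 6.5e-21). Of the promoter selectivity factor, TAF1A fell (-0.41) and TAF1C was called higher at 0.10 (adjusted p = 0.041, edgeR) with overlapping groups. TAF1C was called lower with library totals (-0.15), and its call was lost with DESeq2 (0.12), under both other filters (0.098 and 0.19), without the pair term (0.054) and without pair 2 (0.20) or pair 3 (0.44). With library totals 1 of the 7 rose and 5 fell, against 4181 and 7319 of all 13591 genes.

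Of 16 genes for loading or regulating Pol III, 5 rose, 7 fell and 4 were not called. Their median log2 fold change was -0.06, and of all genes tested 40.6% rose and 41.7% fell. MAF1, the repressor of Pol III, rose 1.82-fold, from 83.5 ± 3.67 to 152 ± 8.88 CPM (0.87, SE 0.04, adjusted p = 5.5e-28, edgeR). GTF3A, which binds the 5S gene, fell (-0.62, SE 0.04), as did the TFIIIC subunits GTF3C6 (-0.95, SE 0.05) and GTF3C3 (-0.50, SE 0.05). With library totals 3 rose and 11 fell, against 4181 and 7319 of all 13591 genes.

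General initiation factors of Pol II were mixed, with 6 of 18 higher, 9 lower and 3 not called (median log2 fold change -0.14). The shares over all genes tested were 40.6% higher and 41.7% lower. The 4 with the smallest p all fell, and 3 belong to TFIIH, the helicase and kinase complex that also serves DNA repair. ERCC2, a TFIIH helicase, went from 69.9 ± 1.85 to 22.8 ± 0.222 CPM (-1.62, SE 0.06, adjusted p = 1.4e-35, edgeR). GTF2H5 (-1.31), GTF2H3 (-1.04) and GTF2A2 of TFIIA (-1.07) fell too. Of all 10 TFIIH genes, a group looked at after its values were seen, 6 fell, 2 rose and 2 were not called. The others that fell were GTF2H2 (-1.09), MNAT1 (-0.98) and CDK7 (-0.18), those that rose were CCNH (0.36) and ERCC3 (0.35), and GTF2H1 and GTF2H4 were at 0.06 and -0.10. With library totals 2 of the 18 rose and 12 fell, against 4181 and 7319 of all 13591 genes.

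Pausing and elongation factors of Pol II rose in 16 of 24 and fell in 4, with a median log2 fold change of 0.40. The same TMM scaling called 40.6% of all genes tested higher and 41.7% lower. AFF4, the scaffold of the super elongation complex, rose from 63.0 ± 3.26 to 178 ± 5.69 CPM (1.5, SE 0.04, adjusted p = 5.9e-42, edgeR). HEXIM1, which inhibits the elongation kinase P-TEFb, rose from 48.7 ± 2.03 to 119 ± 2.31 CPM (1.29, SE 0.05). SUPT5H, of the pausing factor DSIF, rose by 0.67 on the log2 scale. The balance depended on the scaling, since with library totals 13 rose and 9 fell, against 4181 and 7319 of all 13591 genes.

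Assembly and import factors are chaperones and other proteins that take part in building or importing the polymerases. With TMM factors 12 of 15 fell and none rose, with a median log2 fold change of -0.39. Among all genes tested, 41.7% fell and 40.6% rose. RUVBL2, an ATPase of the R2TP chaperone complex, fell from 123.4 ± 3.20 to 47.7 ± 0.523 CPM (-1.37, SE 0.05, adjusted p = 4.2e-37, edgeR). The GTPase GPN3, which takes part in import of Pol II, fell (-1.29, SE 0.07), as did RPAP2 (-1.005, SE 0.07), a phosphatase of the POLR2A tail, and the chaperone HSP90AB1 (-0.63, SE 0.03). With library totals 14 of the 15 fell, against 7319 of all 13591 genes.

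**Figure D5:**
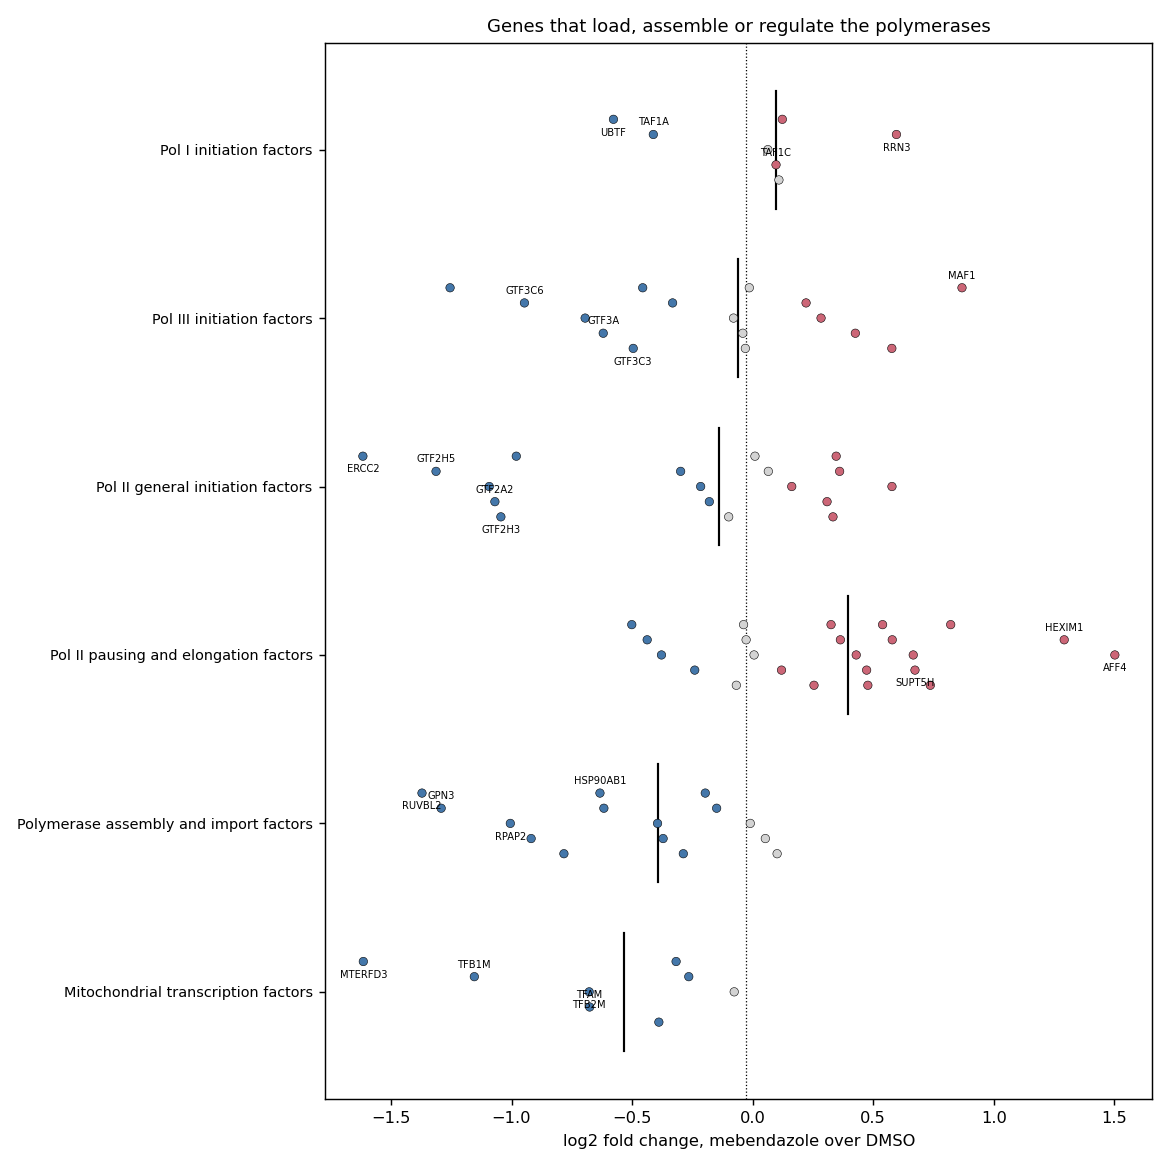
Log2 fold change of the genes in 6 lists of polymerase factors, without genes not reported individually; each point is a gene, blue where called lower, red where called higher and grey where not called, short bars are medians of the whole lists and the dotted line is the median of all genes at -0.03. List medians run from -0.53 for the mitochondrial factors to 0.40 for the pausing and elongation factors.

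The RNAs that Pol I and III make could not be followed in these libraries, whose kit selects poly(A) RNA. The genes RNA45S5, RNA5-8S5, VTRNA1-1, VTRNA1-2, BCYRN1, RNY4 and RNY5 had 0 reads in every library. RMRP had 105, 5 and 1 reads with DMSO and 4 in each mebendazole library, and RPPH1 had 126, 5 and 1 against 2, 2 and 5. Apart from DMSO replicate 1, both groups lay between 1 and 5 reads, and no difference was detectable at this depth. The values above are therefore levels of the polymerases' own messenger RNAs as a share of each library, and total RNA per cell was not measured.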

How the data were processed

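Gene levels were measured by RNA-seq in 6 THP-1 libraries. Per the labels' protocols, total RNA went into an Illumina TruSeq kit that keeps poly(A) RNA and leaves strand unmarked. The authors deposited raw counts of reads for each gene symbol. Per the submitters' processing notes, STAR, bedtools, HTSeq, DESeq2 and hg19 were used, without versions; annotation and strand setting: not given in the sources used here.

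Members and lists were chosen with earlier results of these data known. Counts of all genes were fitted with edgeR 4.0.16 in R 4.3.3: filterByExpr on the group (13591 of 23710 genes, 99.9% of the reads), TMM factors, the sample pair as a term, and a two-sided quasi-likelihood F test, Benjamini-Hochberg adjusted over all genes tested and called under 0.05. The SE is the log2 fold change divided by the square root of F, and rests mostly on spread pooled over genes (prior 61.0 against 2 residual degrees of freedom). Levels are TMM-scaled CPM (mean ± SD, n = 3). Tested on simulated counts of 13468 genes, the fit recovered 83.1% of 1.5-fold and 92.5% of 2-fold changes, with 9 false calls. The simulation changed only a small part of the genes, in both directions, with the same spread for every gene and no pair effect. It therefore does not show how the fit or its scaling behaves where most genes are called, as here. Values in every library are given for the largest and the shared subunits, POLRMT, POLR3G, POLR3GL and the highest and lowest gene of each class, and each list names its 4 genes with the smallest p. Some genes that these rules take enter the counts, sums and medians but are not reported here. Lengths are medians of RefSeq-linked GENCODE v29 transcripts, or the longest transcript where none is linked. Alternatives were other scalings, DESeq2 1.42.0, other filters, no pair term, a 1.5-fold test and leaving out each pair.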

Additional observations from a re-analysis of the deposited data

How the results depend on the processing

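Of 34 subunit genes, 24 kept their sign and call wherever they were tested, under other scalings, filters, DESeq2, no pair term and without each pair. The exceptions were POLR1D, ZNRD1, POLR2C, POLR2J, POLR2J4, POLR2L, POLR3A, POLR3C, POLR3F and POLRMT, all with log2 fold changes between -0.20 and 0.26. The filter at a mean CPM of 10 left 29 of the 34 genes. It removed CD3EAP, POLR3G, ZNRD1, POLR2J3 and POLR2J4, which were thus not tested there. The cause was not tested where none is named.

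With library totals, which move the median gene from -0.03 to -0.27, 3 subunits were called higher (1 among the Pol II copies and associated, 0 of Pol III), 2 of Pol I and III and 5 of Pol II lower, and 19 list genes higher (30 with TMM). The medians were then -0.55 for all subunits, -1.44 for Pol I, -0.42 for Pol I and III, -0.65 for the shared, -0.34 for Pol II and -0.80 for Pol III. POLR2C (-0.17), POLR3F (-0.039) and TAF1C (-0.15) reversed. Of all 13591 genes, 4181 were called higher and 7319 lower with library totals.

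DESeq2 called 3 subunits higher (1 Pol II copy or associated, 0 of Pol III) and did not call POLRMT (0 lower), with medians of -1.17 for Pol I and -0.39 for the shared. With DESeq2 size factors in edgeR they were -1.17 and -0.38. POLR2L was 0.0072 with DESeq2 and 0.0076 with its size factors. Without a filter 0 Pol III genes were called higher (medians -1.21 for Pol I, -0.42 for the shared). At a mean CPM of 10 or more, where 9501 genes were tested, 3 subunits were called higher (1 and 0 in the same classes), with medians of -1.22, -0.44 and, for Pol III, -0.34.

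The test against 1.5-fold, which asks for a larger change, called 12 subunits lower (5 of Pol III, 1 shared, 0 of Pol I and III, 0 mitochondrial) and 0 higher in any class. It called 8 list genes higher and 16 lower, and 2896 and 2878 of all genes.

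With no replicate block, 3 subunits were called higher (1 Pol II copy or associated, 0 of Pol III): POLR2J4 (adjusted p = 0.052) and POLR3F (0.064) lost their calls in edgeR. Libraries with the same pair number deviated together by correlations of 0.00, 0.06 and 0.02 only, and not every one matched its own number best. These values do not show whether such libraries share more than a number.

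Without each pair in turn, 4 to 5 subunits were called higher and 21 to 22 lower. In the classes, 1 to 2 of Pol I and III were lower, 1 to 2 Pol II copies or associated and 0 to 1 of Pol III higher, and 0 to 1 mitochondrial lower. Medians ran from -1.20 to -1.16 (Pol I) and from -0.53 to -0.39 (shared). ZNRD1 was 0.044 without pair 1. POLR1D lay between -0.13 and 0.018 and POLR2L between -0.024 and 0.011, and both turned positive without pair 3, POLR1D also without pair 2 (0.017). Depth limits POLR3G, CD3EAP and the POLR2J copies most.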
